A study of Mus musculus with 8 samples.

Results

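The Zfp genes carry the mouse symbol for zinc finger protein, and they were followed here in bone marrow-derived macrophages with and without inducible nitric oxide synthase (iNOS). The members were chosen by their detection p-values: a probe entered when its symbol began with Zfp and a digit and when its detection p-value was under 0.05 on at least 2 of the 8 arrays. This gave 215 probes of 164 genes, out of 350 Zfp probes of 254 genes on the array and 25697 probes in all. Bone marrow cells of female mice aged 8 weeks, on the C57bl/6J background by the labels, had been grown with GM-CSF for 7 days. The mutant line was B6.129P2-Nos2tm1Lau, in which every cell carries the mutation, and the WT controls lack it. M1 cells had received 200 ng/ml LPS plus 10 ng/ml IFN-γ for 6 h, and control cells were left unstimulated. Each of the 4 groups, which are WT or iNOS-/- and unstimulated or M1, has 2 arrays. Whether these 2 came from separate mice is not stated in the labels, so the p-values measure the spread between arrays, which may be technical. The study asked how nitric oxide from iNOS acts on M1 polarization.

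A C2H2 zinc finger is a short fold held by a zinc ion between cysteine and histidine side chains, and most Zfp proteins carry a row of them that reads DNA. Many also carry a KRAB domain, which recruits the co-repressor Trim28 (KAP1) and through it the histone methyltransferase Setdb1, a machinery known for silencing retrotransposons. The symbol also covers unrelated proteins: CCCH-type fingers of the Zfp36 family bind AU-rich elements and bring cytokine mRNAs to decay, and others are ubiquitin ligases or RNA-processing factors.

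The probes are 50 bases long. The base pattern that codes for the conserved linker between adjacent fingers, searched on the sense strand, occurred in 1 of the 215 member probes and in 9 of the 25697 probes of the array. That member was Zfp182 on chromosome X, and its probe is shown because it is the one that reads such a linker, here in capitals.
Zfp182: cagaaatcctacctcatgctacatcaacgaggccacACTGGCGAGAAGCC
Zfp182 was dim but detected on all 8 arrays, between 2.69 and 3.79 on the log2 scale, and was called in none of the comparisons (limma adjusted p from 0.0986 to 0.98). A run of at least 20 bases was shared with a probe of another symbol for 3 of the 215 probes. They were Zfp131 (48 bases with LOC100040573), Zfp97 (28 bases with LOC626854) and Zfp313 (49 bases with Rnf114, which is the current symbol of the same gene). The values of Zfp131 and Zfp97 can therefore hold signal of the other locus.

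The targeted gene did not check the labels. Nos2, which encodes iNOS, had log2 intensities of 0.15 and 0.00 on the WT unstimulated arrays, 7.52 and 7.10 on WT M1, 1.02 and 1.92 on labelled iNOS-/- unstimulated and 7.59 and 7.76 on those labelled iNOS-/- M1. The difference between the M1 groups was 0.37 ± 0.32 (log2, SE, limma adjusted p = 0.39). The probe starts at base 3546 of the transcript, and whether it lies in the deleted part is not given in the sources used here. The genotypes below are therefore those of the labels. All 8 macrophage markers on the array were detected in every group, and no lymphoid or fibroblast marker was detected on both arrays of any group. The macrophage markers summed to 15130 to 15650 on WT unstimulated and 12580 to 12750 on WT M1 arrays. They summed to 9955 to 10050 on labelled iNOS-/- unstimulated and 16140 to 16620 on labelled iNOS-/- M1 arrays. Such a sum follows its brightest gene, which on the labelled iNOS-/- M1 arrays was Cd14 (13.11 and 13.01, log2). Gene by gene, 3 of the 8 were higher and 5 lower in labelled iNOS-/- M1 than in WT M1 cells. Their median log2 difference was -0.58, and of all genes 25.5% were higher and 24.6% lower. The summed intensity of 9 dendritic cell markers was 885 to 886.4 on WT unstimulated arrays, 17320 to 17900 on WT M1, 14300 to 15160 on labelled iNOS-/- unstimulated and 38690 to 40450 on labelled iNOS-/- M1 arrays. The dendritic markers Flt3 and, in WT unstimulated and labelled iNOS-/- M1 cells, Cd209a were not detected. The sum of 7 markers of dividing cells was 536 to 604.5, 1713 to 1850, 1970 to 1988 and 714.1 to 718.1 in the same order. For 8 granulocyte markers it was 1174 to 1193, 1443 to 1554, 1733 to 1792 and 4117 to 4247, with Mpo and Mcpt8 undetected throughout. Of these, Mmp8 was instead highest on the WT unstimulated arrays (7.57 and 7.61, log2). These levels moved with the comparisons of the Zfp genes below, and their part in them was not tested. In such bulk RNA, fewer cells of a type and less RNA per cell cannot be told apart.

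Values are log2 of the scaled intensity, and 0 is the floor of intensity 1. Between 167 and 198 of the 215 members were detected per array, and 141 were detected on all 8 arrays (65.6%, against 69.9% of the 13868 probes that met the same detection rule). Just inside the rule lay 15 probes detected on exactly 2 arrays, whose brightest array ranged from 2.79 to 4.55 with a median of 3.19. Just outside it lay 30 probes detected on 1 array, whose brightest array ranged from 2.40 to 3.62 with a median of 2.89. A further 105 Zfp probes were detected on none. A member that passed through 1 group alone had to be high there, so shares called are also given for probes detected on all 8 arrays. Of the 215 probes, 214 matched a RefSeq gene, and 16 genes now carry another symbol, among them Zfp238 (Zbtb18), Zfp364 (Rnf115), Zfp313 (Rnf114), Zfp67 (Zbtb7b), Zfp161 (Zbtb14), Zfp259 (Zpr1) and Zfp828 (Champ1). The file gives a chromosome for 193 members, and chromosome 7 holds the most, with 53 probes of 44 genes.

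In M1 cells, 71 of the 215 Zfp probes differed between the labelled genotypes, of which 45 were higher and 26 lower in labelled iNOS-/- cells (limma, adjusted p under 0.05 over 13868 probes). This was 33.0% of the members, against 48.5% of all probes tested. Higher calls made up 20.9% of the members against 24.5% of all probes, and lower calls 12.1% against 23.9%. Among probes detected on all 8 arrays, 39.7% of the members and 57.2% of all probes were called. The median log2 difference was 0.11 over the members and 0.01 over all probes. It was above 0 for the members with each normalization tried, and 0 with a floor of 16.

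Without stimulation, 36 members differed between the labelled genotypes, 13 higher and 23 lower in labelled iNOS-/- cells. They were 16.7% of the members, against 32.1% of all probes, with 6.05% higher against 16.1% and 10.7% lower against 16.1%. Of those detected on all 8 arrays, 18.4% of the members and 38.0% of all probes were called. The median was -0.14 over the members and -0.02 over all probes. The count was 23 (12 higher, 11 lower) without WT unstimulated replicate 1, 21 (10 higher, 11 lower) without WT unstimulated replicate 2 and 22 (9 higher, 13 lower) without iNOS-/- unstimulated replicate 2. The share of all probes called also fell, to 20.2%, 20.5% and 20.0%.

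LPS plus IFN-γ changed 54 members in WT cells, 17 higher and 37 lower, or 25.1% of the members against 35.1% of all probes. Of those detected on all 8 arrays, 29.8% of the members and 41.9% of all probes were called. Higher calls were 7.91% of the members against 20.1%, and lower calls 17.2% against 14.9%, so that 31.5% of the called members were higher, against 57.5% of all called probes. With quantile normalization these shares were 15.9% and 47.4%, with neqc, which corrects background by a normal-exponential model, 18.7% and 44.4%, and with a scaling line that has an intercept 21.3% and 50.2%. The median was -0.17 over the members and 0.07 over all probes, and it was below 0 for the members with each normalization tried and 0 with a floor of 16. The count was 25 without WT unstimulated replicate 1, 20 without WT unstimulated replicate 2, 27 without WT M1 replicate 1 and 24 without WT M1 replicate 2, while the share of all probes called fell to 22.7%, 22.5%, 23.5% and 22.9%.

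In the cells labelled iNOS-/-, the same treatment changed 75 members, 41 higher and 34 lower, or 34.9% of the members against 49.9% of all probes. Higher calls were 19.1% against 26.4%, and lower calls 15.8% against 23.6%. With detection on all 8 arrays, 41.1% of the members and 57.9% of all probes were called. The median over the members was 0.04, but -0.01 with quantile normalization and also with neqc. With quantile normalization 34 members were higher and 39 lower, and with neqc 42 were higher and 42 lower, so the balance of the calls depended on the scaling. Of all called probes 52.8% were higher, against 41.9% with quantile normalization. The response differed between the labelled genotypes for 60 members, 40 higher and 20 lower in iNOS-/-, by the interaction term in limma. They were 27.9% of the members against 42.1% of all probes, with 18.6% higher against 21.0% and 9.30% lower against 21.1%. With detection on all 8 arrays, the shares for this difference were 32.6% and 50.3%. In every comparison the share of Zfp probes called was thus below that of all probes. The members were dimmer, with array medians of 4.73 to 5.02 on the log2 scale against 5.80 to 5.96 for all probes tested. Arrays of 1 group differed by a median of 0.20 to 0.28 over the members and 0.16 to 0.19 over all probes. The part of brightness and spread in the lower share was not tested.

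**Figure D1:**
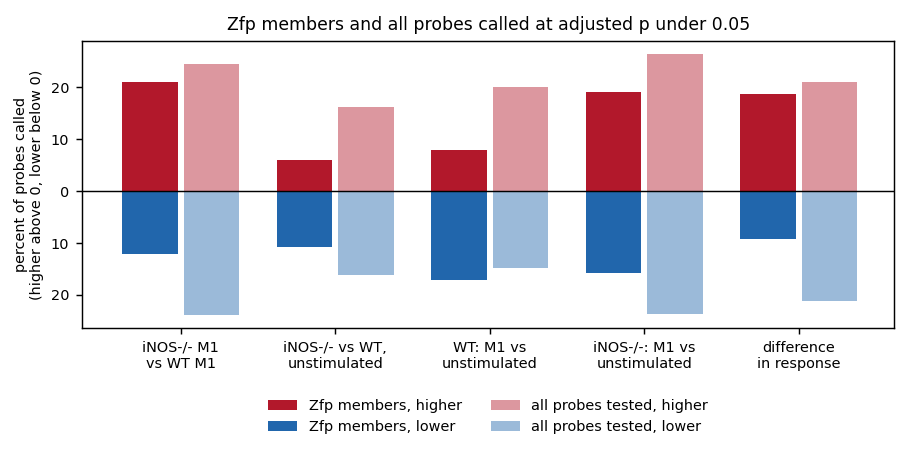
Percent of the 215 Zfp probes (full colour) and of the 13868 probes tested (pale) called at adjusted p under 0.05 in limma, higher above the 0 line and lower below it, for 5 comparisons of the labelled groups. In the WT response the lower calls of the members (17.2%) lay above those of all probes (14.9%), and the other 9 bars of the members lay below those of all probes.

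The groups can also be set side by side by which of them held the extreme values. Both arrays labelled iNOS-/- M1 were the highest of the 8 for 47 members (21.9%, against 27.5% of all probes) and the lowest for 34 (15.8% against 23.2%). Both WT unstimulated arrays were the highest for 43 members (20.0% against 18.0%) and the lowest for 16 (7.44% against 17.2%). Both WT M1 arrays were the highest for 9 members (4.19% against 6.89%) and the lowest for 28 (13.0% against 6.17%). Both arrays labelled iNOS-/- unstimulated were the highest for 12 members (5.58% against 8.70%) and the lowest for 16 (7.44% against 10.0%). These shares describe the arrays and carry no test of the family.

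Among the members that were higher on labelled iNOS-/- M1 arrays, Zfp238, a transcriptional repressor now named Zbtb18, was read by 4 member probes. A further probe, detected on 1 array, was no member and was highest on a WT M1 array (3.08, against 1.91 and 2.24 on labelled iNOS-/- M1 arrays). The member probe with the highest mean gave 9.32 and 9.42 on WT unstimulated arrays, 8.91 and 8.96 on WT M1, 9.25 and 9.10 on labelled iNOS-/- unstimulated and 10.29 and 10.13 on labelled iNOS-/- M1. Both labelled iNOS-/- M1 arrays stood above the other 6. The difference between the M1 groups was 1.27 on that probe (adjusted p = 0.000616), and 1.10 and 0.69 on the other probes detected throughout (adjusted p = 0.000635 and 0.00309). The dimmest probe gave 1.95 and 1.28, 1.66 and 0.00, 0.00 and 0.13, and 3.98 and 4.52 in the same order. It was detected on the labelled iNOS-/- M1 arrays alone and entered the members only through them, so that no test towards that group is given. None of the 4 probes was called between the unstimulated groups (adjusted p from 0.0542 to 0.221).

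Zfp366 (DC-SCRIPT), a transcriptional regulator known from dendritic cells, was detected on the labelled iNOS-/- M1 arrays alone. They gave 4.55 and 4.30, against 0.02 and 0.00 on WT unstimulated, 2.24 and 0.00 on WT M1 and 0.67 and 1.13 on labelled iNOS-/- unstimulated arrays. It entered the members only through these 2 arrays, so that its higher level there is a description and no test is given. Of the 9 dendritic markers, 8 were tested, of which 5 were higher and 1 lower in labelled iNOS-/- M1 than in WT M1 cells. Ccr7 was higher by 3.01, Il4i1 by 1.64 and Ccl17 by 0.83 on the log2 scale (adjusted p = 0.000265, 0.000248 and 0.00141), while Cd209a was not detected in labelled iNOS-/- M1 cells (4.83 and 5.21 on WT M1 arrays, adjusted p = 0.00138). Their part in the level of Zfp366 was not tested.

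Zfp364 encodes the RING-type ubiquitin ligase now named Rnf115. It gave 5.18 and 5.23 on labelled iNOS-/- M1 arrays, against 3.61 and 4.34 on WT unstimulated, 3.13 and 2.89 on WT M1 and 3.38 and 3.36 on labelled iNOS-/- unstimulated arrays. The labelled iNOS-/- M1 arrays stood apart from the other 6, by 2.20 ± 0.25 over WT M1 (adjusted p = 0.00158). Zfp11 gave 3.19 and 2.73 on WT unstimulated and 2.99 and 3.56 on labelled iNOS-/- M1 arrays, and lay at the floor on the other 4. It was at least 1.37-fold higher in labelled iNOS-/- M1 than in WT M1 cells (adjusted p = 0.000443) and at least 1.51-fold lower in labelled iNOS-/- than in WT unstimulated cells (adjusted p = 0.000914). With a floor of 16 both log2 differences were 0 and neither was called. Zfp819, a KRAB protein that binds Trim28 in embryonic stem cells, gave 0.00 and 0.00 on WT unstimulated, 2.24 and 2.86 on WT M1, 3.26 and 3.23 on labelled iNOS-/- unstimulated and 4.57 and 4.19 on labelled iNOS-/- M1 arrays. Each labelled iNOS-/- array thus stood above each WT array. It was detected on no WT array and entered the members only through the arrays labelled iNOS-/-, so that no test between the genotypes is given. As a description, Zfp819 was at least 2.94-fold higher in the labelled iNOS-/- M1 cells than in WT M1 and at least 1.61-fold higher without stimulation.

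**Figure D2:**
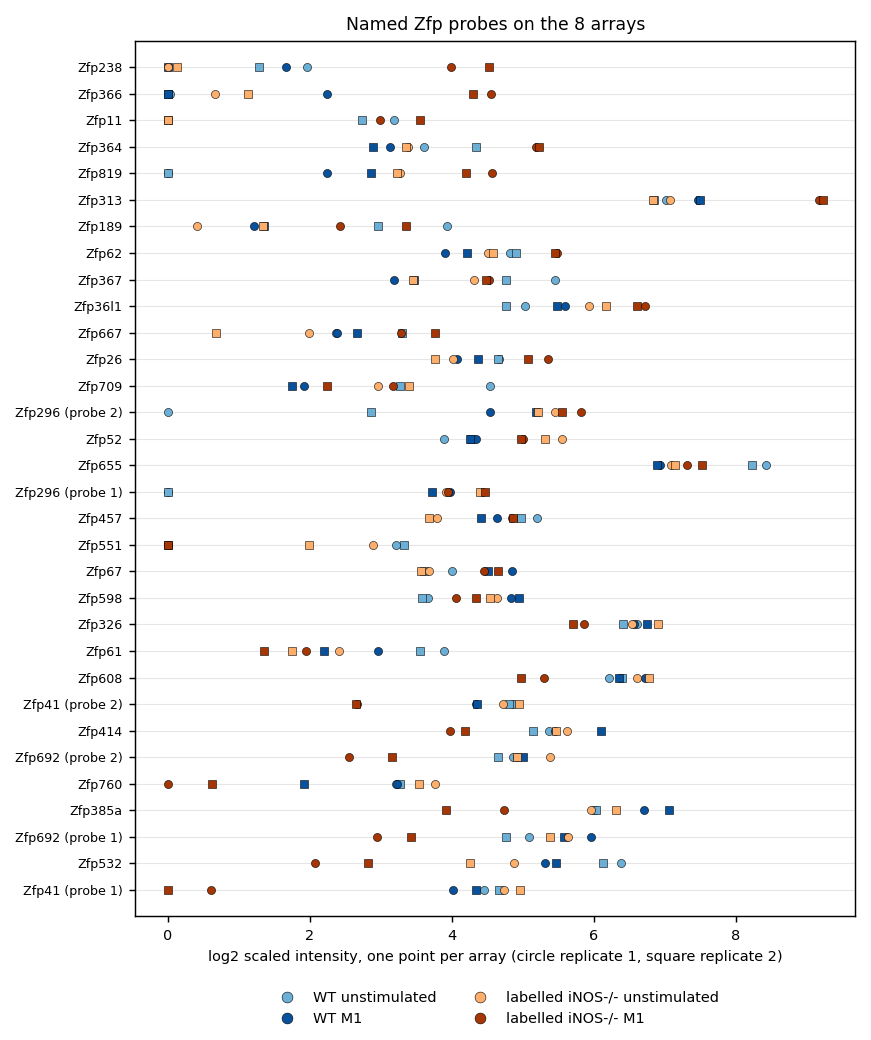
Log2 scaled intensity of the named Zfp probes on each of the 8 arrays, ordered by the difference between the M1 groups, with replicate 1 as circles and replicate 2 as squares. The points of Zfp238 (its dimmest probe), Zfp366, Zfp364 and Zfp313 on the arrays labelled iNOS-/- M1 stood to the right of the other 6, and those of Zfp41, Zfp532, Zfp692 and Zfp385a to the left. The Zfp238 probe and Zfp366 entered the members only through the labelled iNOS-/- M1 arrays.

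Zfp41, Zfp532, Zfp692 and Zfp385a were lower on labelled iNOS-/- M1 than on WT M1 arrays. Zfp41 was read by 2 probes, of which the first gave 4.45 and 4.66, 4.02 and 4.34, 4.74 and 4.96, and 0.61 and 0.00 on WT unstimulated, WT M1, labelled iNOS-/- unstimulated and labelled iNOS-/- M1 arrays. The other gave 4.86 and 4.80, 4.34 and 4.35, 4.72 and 4.95, and 2.66 and 2.65. Neither probe was detected on the labelled iNOS-/- M1 arrays, where they were at least 2.29-fold and 2.56-fold lower than in WT M1 (adjusted p = 0.000307 and 0.000295). Zfp532, a relative of Zfp592 and Zfp687, gave 6.39 and 6.13, 5.32 and 5.46, 4.87 and 4.25, and 2.07 and 2.82 in the same order. It was undetected in labelled iNOS-/- M1 cells and at least 5.28-fold lower there than in WT M1 (adjusted p = 0.00136), with no overlap between any of the 3 other groups. Its second probe fell by 1.54 on the log2 scale in the same comparison (adjusted p = 0.00157).

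Zfp692, also known as AICAR responsive element binding protein, gave 5.09 and 4.76, 5.96 and 5.59, 5.63 and 5.38, and 2.95 and 3.43 on its first probe. Its second probe gave 4.86 and 4.66, 4.92 and 5.01, 5.39 and 4.91, and 2.55 and 3.16. Both labelled iNOS-/- M1 arrays lay below the other 6 on each probe, with means lower by 2.58 ± 0.24 and 2.11 ± 0.26 against WT M1 (log2, SE, adjusted p = 0.00082 and 0.00207). Each probe was detected on 1 of the 2 labelled iNOS-/- M1 arrays, so these differences rest in part on a value not above background. Zfp385a, an RNA-binding finger protein first described in haematopoietic cells, gave 6.01 and 6.04, 6.71 and 7.06, 5.96 and 6.31, and 4.73 and 3.92. It fell by 2.56 ± 0.30 on the log2 scale from WT M1 to labelled iNOS-/- M1 cells (adjusted p = 0.00181), and its dimmer second probe, undetected in labelled iNOS-/- M1 cells, was at least 1.27-fold lower (adjusted p = 0.044).

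**Figure D3:**
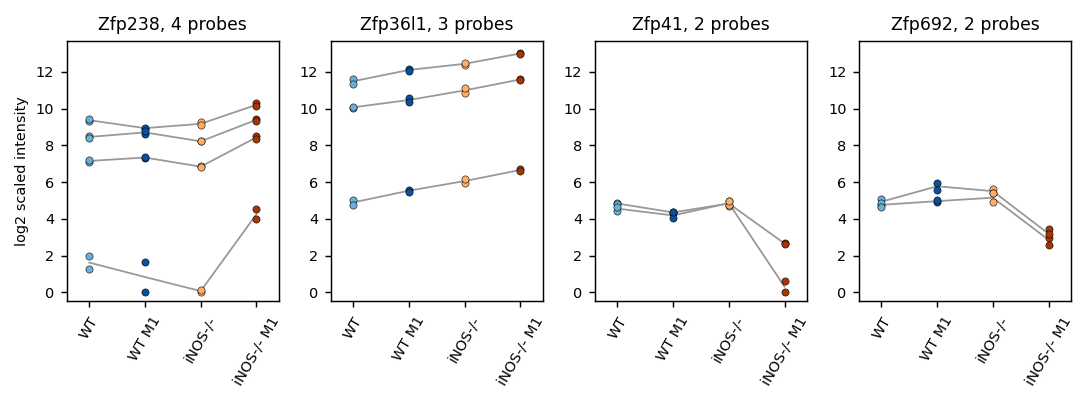
Log2 scaled intensity of every member probe, detected on at least 2 arrays, of Zfp238, Zfp36l1, Zfp41 and Zfp692 on the 8 arrays, with lines through the group means. All 4 member probes of Zfp238 had their highest values on the labelled iNOS-/- M1 arrays. The dimmest of these entered the members only through those arrays. A further Zfp238 probe, no member and not shown, was highest on a WT M1 array. All 3 probes of Zfp36l1 kept the same order of the 4 groups. The probes of Zfp41 and Zfp692 had their lowest values on the labelled iNOS-/- M1 arrays. Heights of different probes cannot be compared.

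Of the 164 member genes, 38 had several probes. In the M1 comparison all probes of 8 genes were called with 1 sign, some probes of 12 and none of 18. No gene had probes called in opposite directions in any of the 5 comparisons. Zfp367 is an example of probes that differed in call: on 1 probe its response differed between the labelled genotypes by 2.40 (adjusted p = 0.0151), and on the other by 0.41 (adjusted p = 0.493).

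In unstimulated cells, Zfp296, which is known from pluripotent stem cells, was higher in the labelled iNOS-/- cells. Its first probe was at the floor on both WT unstimulated arrays and gave 3.97 and 3.72 on WT M1, 3.92 and 4.40 on labelled iNOS-/- unstimulated and 3.95 and 4.47 on labelled iNOS-/- M1 arrays. Without stimulation it was at least 3.04-fold higher in the labelled iNOS-/- cells (adjusted p = 0.000361), and the WT response was at least 2.44-fold (adjusted p = 0.000383). The second probe gave 0.00 and 2.86, 4.53 and 5.18, 5.46 and 5.22, and 5.82 and 5.55, with adjusted p = 0.0269 and 0.0376 in these comparisons. The first of these calls was lost without either WT M1 array (adjusted p = 0.0509) or either iNOS-/- unstimulated array (0.113 and 0.0963), and the second without any 1 of these 4 arrays or either iNOS-/- M1 array (0.0639 to 0.145). Both comparisons use the WT unstimulated arrays, so they are not independent of each other.

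Zfp52 gave 3.88 and 4.27 on WT unstimulated, 4.34 and 4.26 on WT M1, 5.55 and 5.32 on labelled iNOS-/- unstimulated and 5.0 and 4.98 on labelled iNOS-/- M1 arrays, higher by 1.36 ± 0.16 without stimulation (adjusted p = 0.00308). Zfp457 gave 5.21 and 4.98, 4.64 and 4.41, 3.79 and 3.67, and 4.85 and 4.86 in the same order. Its labelled iNOS-/- unstimulated arrays were the lowest of all, by 1.36 ± 0.13 against WT (adjusted p = 0.0015). Zfp189 gave 3.94 and 2.95, 1.20 and 1.35, 0.40 and 1.33, and 2.43 and 3.36. It met the detection rule only through the WT unstimulated arrays, so that no test from that group is given. As a description, it was at least 2.11-fold lower in the labelled iNOS-/- unstimulated cells. Zfp532 also differed in these cells, by -1.70 ± 0.32 (adjusted p = 0.0138), and Zfp61, which gave 3.89 and 3.56 on WT and 2.40 and 1.75 on labelled iNOS-/- unstimulated arrays, by -1.65 ± 0.38 (adjusted p = 0.026). Of these called genes, Zfp532 and Zfp61 lost the call when 1 array was left out. Zfp532 lost it without WT unstimulated replicate 1 (0.0718), replicate 2 (0.0503) or iNOS-/- unstimulated replicate 2 (0.0629), and Zfp61 without the same arrays (0.116, 0.0746 and 0.113).

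In the WT response, Zfp598, which ubiquitinates ribosomal proteins on collided ribosomes, rose from 3.66 and 3.58 to 4.83 and 4.95, by 1.27 ± 0.13 (adjusted p = 0.00174). In the cells labelled iNOS-/- it was 4.63 and 4.54 without and 4.05 and 4.35 with LPS plus IFN-γ. Zfp67, now Zbtb7b and known for CD4 T-cell commitment, went from 4.0 and 3.61 to 4.85 and 4.51 (0.87 ± 0.19, adjusted p = 0.0206). The call was lost without WT unstimulated replicate 2 (0.0835) or WT M1 replicate 1 (0.087), and with quantile normalization (0.069). The call of Zfp692 in this response (0.84 ± 0.24, adjusted p = 0.0438) was lost when any 1 WT or iNOS-/- unstimulated array was left out (0.0687 to 0.173), with quantile normalization (0.0845), with a scaling intercept (0.0505), without the detection filter (0.0948), with the 4 arrays alone (0.0718) and with the replicate block (0.07).

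Zfp551 fell from 3.22 and 3.32 to the floor on both WT M1 arrays. Outside the WT unstimulated group it was detected on 1 array. It thus met the detection rule only through that group, and no test from it is given. Zfp11 was likewise at the floor in WT M1, at least 1.10-fold lower (adjusted p = 0.000848). Zfp189, a member only through the WT unstimulated arrays, was at least 1.54-fold lower, with no test given. Zfp709 went from 4.54 and 3.26 to 1.91 and 1.75, at least 2.11-fold (adjusted p = 0.0298), on 1 of its 4 probes. Its other probes were not called (adjusted p from 0.241 to 0.922). Zfp367 went from 5.45 and 4.76 to 3.19 and 3.46 on its called probe (-1.78 ± 0.36, adjusted p = 0.0157). Zfp709 and Zfp367 each lost the call without WT unstimulated replicate 1 and without WT M1 replicate 1 or replicate 2. Zfp709 also lost it without either iNOS-/- unstimulated array.

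In the response of the cells labelled iNOS-/-, Zfp238 rose by 1.03 on its probe with the highest mean (adjusted p = 0.000865), and Zfp11 rose from the floor by at least 1.88-fold (adjusted p = 0.000288). Zfp313, the ubiquitin ligase now named Rnf114, gave 7.01 and 6.85 on WT unstimulated, 7.46 and 7.49 on WT M1, 7.07 and 6.84 on labelled iNOS-/- unstimulated and 9.17 and 9.23 on labelled iNOS-/- M1 arrays. It rose in both genotypes, by 0.55 ± 0.12 in WT (adjusted p = 0.0184) and by 2.24 ± 0.12 in labelled iNOS-/- (adjusted p = 0.000107), and the difference was called (adjusted p = 0.00142). The overlapping probe named Rnf114 gave 8.24 and 8.16 on WT M1 and 9.49 and 9.63 on labelled iNOS-/- M1 arrays (1.35 ± 0.12, adjusted p = 0.000836). Zfp667 gave 1.99 and 0.67 without and 3.28 and 3.76 with stimulation in labelled iNOS-/- cells, at least 2.22-fold (adjusted p = 0.0192), a call lost without iNOS-/- unstimulated replicate 2 (0.0626) or iNOS-/- M1 replicate 2 (0.0856).

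The 2 probes of Zfp41 fell by at least 3.63-fold and 3.59-fold in the labelled iNOS-/- response (adjusted p = 0.000117 and 8.35e-05). Zfp692 fell by 2.32 ± 0.24 and 2.29 ± 0.26 on the log2 scale (adjusted p = 0.00091 and 0.00129), with 1 of the 2 labelled iNOS-/- M1 arrays detected on each probe. Zfp760 gave 3.76 and 3.53 without and 0.00 and 0.62 with stimulation in labelled iNOS-/- cells, at least 1.58-fold lower (adjusted p = 0.00258). In WT cells it was 3.22 and 3.26 without and 3.22 and 1.91 with stimulation.

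**Figure D4:**
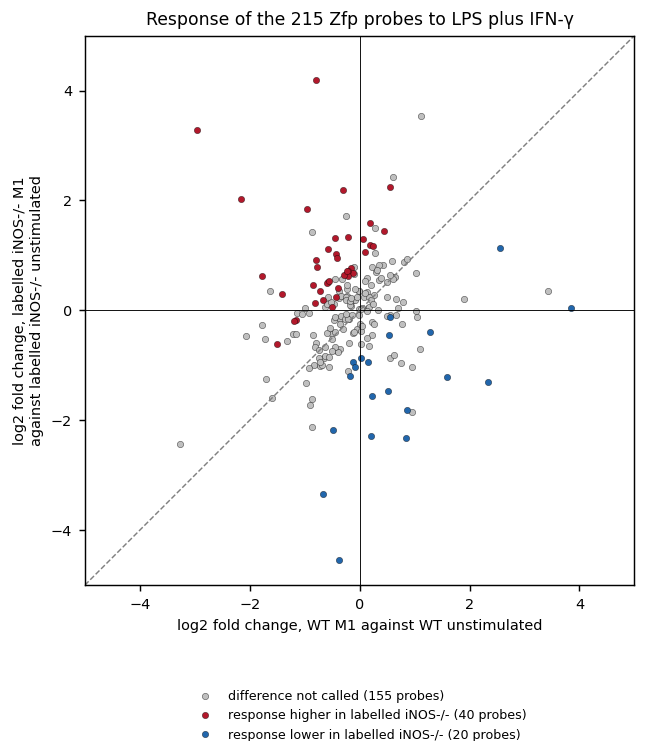
Log2 fold change of each of the 215 Zfp probes on LPS plus IFN-γ in WT cells (horizontal) and in cells labelled iNOS-/- (vertical), with the dashed line at equal responses. Red marks the 40 probes whose response was higher in the labelled iNOS-/- cells by the interaction term, blue the 20 probes with a lower response, and grey the other 155.

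Both responses were called for 31 of the 215 members (14.4%, against 23.3% of all probes). Of these, 8 rose in both genotypes (3.72% against 9.61%) and 12 fell in both (5.58% against 5.71%). A further 9 fell in WT and rose in labelled iNOS-/- cells (4.19% against 3.37%), and 2 did the reverse (0.930% against 4.58%). The 9 were Zfp11, Zfp189, Zfp238 (1 probe), Zfp364, Zfp457, Zfp46, Zfp62 (1 probe), Zfp639 and Zfp748, and the 2 were Zfp282 and Zfp692 (1 probe). They were named after their values were seen. The fall of Zfp189 in WT cells starts from the group through which it entered, and is a description. Zfp62, for example, gave 4.81 and 4.90, 3.90 and 4.21, 4.51 and 4.58, and 5.48 and 5.45 on WT unstimulated, WT M1, labelled iNOS-/- unstimulated and labelled iNOS-/- M1 arrays, a change of -0.80 ± 0.13 in WT and 0.92 ± 0.13 in labelled iNOS-/- cells (adjusted p = 0.00749 and 0.00256). Zfp26 gave 4.66 and 4.66, 4.08 and 4.36, 4.02 and 3.76, and 5.35 and 5.07. Its response differed by 1.76 ± 0.23 (adjusted p = 0.00347). Zfp655, a KRAB protein that binds the signalling protein Vav1, gave 8.43 and 8.23 on WT unstimulated arrays, which stood above the other 6, and 6.93 and 6.90, 7.08 and 7.14, and 7.31 and 7.53 on the rest in the same order.

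The role lists put names to these changes, with 1 probe a gene and beside them the 25.5% of 10163 genes called higher and 24.6% called lower in the M1 comparison. Of the CCCH-type mRNA decay factors, 3 of the 4 on the list were tested. Zfp36l1 was read by 3 probes, and its probe with the highest mean gave 11.63 and 11.36 on WT unstimulated, 12.14 and 12.08 on WT M1, 12.39 and 12.49 on labelled iNOS-/- unstimulated and 13.02 and 13.00 on labelled iNOS-/- M1 arrays. The 4 groups did not overlap and kept this order on the other 2 probes. On this probe the labelled iNOS-/- cells were higher by 0.90 ± 0.12 with and by 0.95 ± 0.12 without stimulation (adjusted p = 0.00247 and 0.00353). The responses of 0.62 in WT and 0.57 in labelled iNOS-/- cells differed by -0.05 ± 0.16 (adjusted p = 0.834).

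Zfp36 (tristetraprolin), which destabilizes Tnf mRNA, gave 10.92 and 10.93, 11.18 and 11.27, 10.81 and 10.57, and 11.36 and 11.42. It was called only in the response of the cells labelled iNOS-/- (0.70 ± 0.11, adjusted p = 0.00394). The WT response was 0.30 ± 0.11 (adjusted p = 0.0846), and the difference of the responses was not called (0.40 ± 0.15, adjusted p = 0.0898). Zfp36l2 was detected on 3 arrays and called in no comparison. Of 17 tested genes of the CCR4-NOT and decapping machinery that such proteins recruit, or of competing AU-rich element binders, 7 were higher and 2 lower in labelled iNOS-/- M1 than in WT M1 cells.

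**Figure D5:**
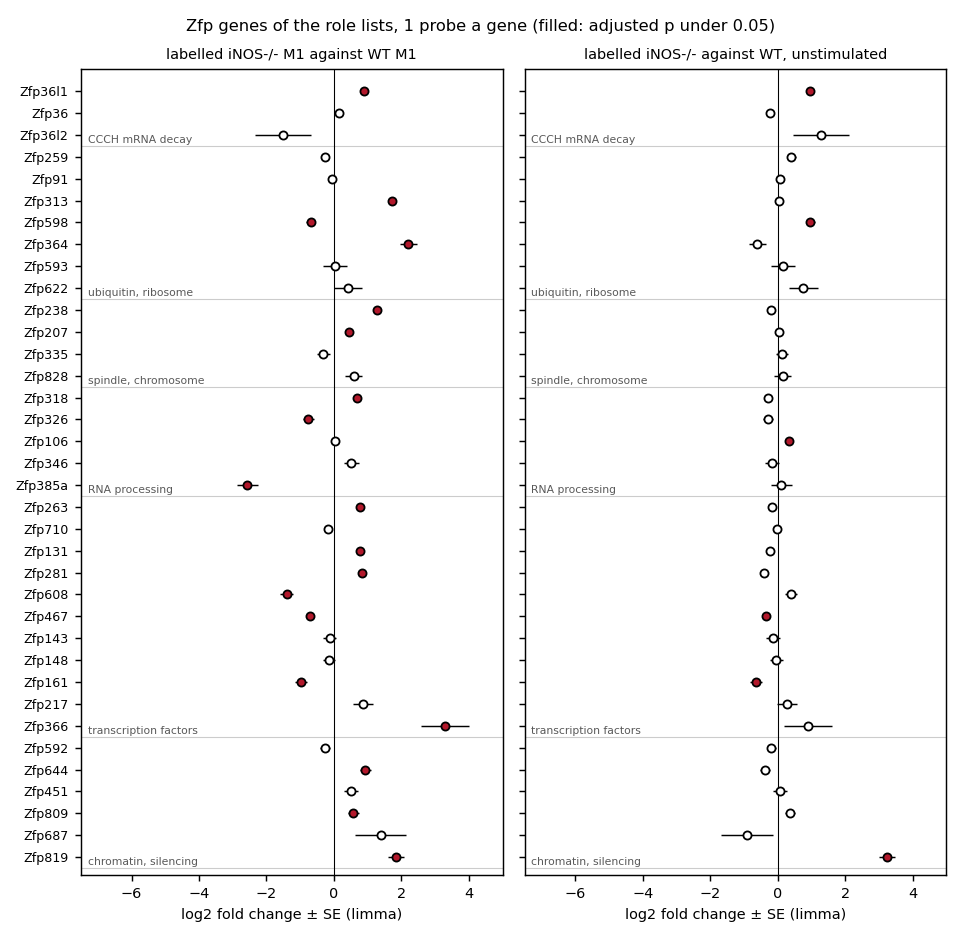
Log2 fold change with its standard error from limma for the tested Zfp genes of 6 role lists, between the M1 groups (left) and between the unstimulated groups (right), with filled points at adjusted p under 0.05. In the left panel 13 genes were higher and 6 lower in labelled iNOS-/- cells, and in the right panel 4 were higher and 2 lower, beside 17.1% of all genes higher and 17.0% lower there. The 13 include Zfp366, which entered the members only through the labelled iNOS-/- M1 arrays. The 13 and the 4 both include Zfp819, which entered only through the arrays labelled iNOS-/-.

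Of the 7 tested ubiquitin and ribosome-associated members, Zfp313 and Zfp364 were higher and Zfp598 lower in labelled iNOS-/- M1 than in WT M1 cells (Zfp598: -0.69 ± 0.13, adjusted p = 0.00812). Zfp91, Zfp593, Zfp622 and Zfp259 were not called there. Of the 4 tested genes of the spindle and chromosome list, Zfp207 and Zfp238 were higher, the latter being the transcriptional repressor described above. Zfp207 (BuGZ), which helps chromosomes align on the spindle, gave 8.51 and 8.39 on WT M1 and 8.93 and 8.86 on labelled iNOS-/- M1 arrays (0.44, adjusted p = 0.0114). The markers of dividing cells were lower on the labelled iNOS-/- M1 arrays than on WT M1 arrays, and their part was not tested. Zfp335 and Zfp828 were not called there.

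Of the 5 tested RNA-processing members, Zfp318, which controls IgD transcripts in B cells, was higher in labelled iNOS-/- M1 cells (7.38 and 7.39 on WT M1 against 8.04 and 8.11). Its difference was 0.69 (adjusted p = 0.00331). Zfp326, part of a complex that couples splicing to transcription, was lower (7.00 and 7.05 against 6.41 and 6.13, -0.76 on its probe with the highest mean, adjusted p = 0.0111), as was Zfp385a. Zfp106 and Zfp346 were not called there.

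Of the 11 tested transcription factors with roles in leukocytes or stem cells, 4 were higher and 3 lower in labelled iNOS-/- M1 cells. The higher ones were Zfp366, which entered the members only through the labelled iNOS-/- M1 arrays, and Zfp131 (0.77), Zfp281 (0.83) and Zfp263 (0.78), with adjusted p = 0.00158, 0.00385 and 0.00282 for the last 3. Zfp281, a factor of the pluripotency network, gave 6.51 and 6.48 on WT unstimulated, 6.52 and 6.60 on WT M1, 6.20 and 5.99 on labelled iNOS-/- unstimulated and 7.51 and 7.28 on labelled iNOS-/- M1 arrays. The lower ones were Zfp608, Zfp161 and Zfp467. Zfp608, which restrains Rag gene expression in thymocytes, gave 6.21 and 6.40, 6.72 and 6.35, 6.61 and 6.78, and 5.29 and 4.98, a difference of -1.40 ± 0.19 between the M1 groups (adjusted p = 0.00266). Zfp161 and Zfp467 fell by 0.98 and 0.72 on the log2 scale (adjusted p = 0.00743 and 0.00183), and both were also lower without stimulation (adjusted p = 0.044 and 0.0284). Zfp143, Zfp148, Zfp217 and Zfp710 were not called in the M1 comparison.

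Of the 6 tested members with roles in chromatin and silencing, Zfp644 (0.93), Zfp809 (0.57) and Zfp819 were higher in labelled iNOS-/- M1 cells and none lower. The adjusted p-values of the first 2 were 0.00628 and 0.032. Zfp819 entered the members only through the arrays labelled iNOS-/-, so its higher level is a description. Zfp451, Zfp592 and Zfp687 were not called. Zfp809, which directs Trim28 to retroviral sequences, gave 5.60 and 5.51 on WT M1 and 6.27 and 5.98 on labelled iNOS-/- M1 arrays. Of 15 tested genes of the KRAB co-repressor machinery, 2 were higher and 7 lower in labelled iNOS-/- M1 than in WT M1 cells, and 7 higher and none lower in labelled iNOS-/- than in WT unstimulated cells, where 17.1% of all genes were higher and 17.0% lower. Trim28 itself gave 8.48 and 8.57 on WT unstimulated, 9.18 and 9.26 on WT M1, 9.08 and 8.92 on labelled iNOS-/- unstimulated and 7.77 and 7.88 on labelled iNOS-/- M1 arrays, a difference of -1.40 between the M1 groups (adjusted p = 0.00044) and 0.47 between the unstimulated groups (adjusted p = 0.0199). The markers of dividing cells moved the same way in both comparisons, and their part was not tested.

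Other zinc finger families gave few genes each. In the M1 comparison, 8 of 17 tested Zbtb genes were higher and 1 lower in labelled iNOS-/- cells, 2 of 5 Zkscan genes higher and none lower, 2 of 4 Zscan genes higher and none lower, and 2 of 10 Klf genes higher and 4 lower. For the 164 Zfp genes with 1 probe each the counts were 37 higher and 20 lower.

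RefSeq promoters (GRCm38.p6, from 250 bases before to 50 bases after a start) were found for 139 of the 164 member genes, 180 promoters in all. They were searched on both strands for TTCNNNGAA, the core of STAT-type elements, and for GAAANNGAA, found in interferon-responsive elements. The first was present in 28 of the 180 member promoters (15.6%, against 8.30% of 32851 promoters) and the second in 11 (6.11% against 8.56%). Of the 26 genes with the first, 7 were higher and 2 lower in labelled iNOS-/- M1 than in WT M1 cells, and of the 10 genes with the second 5 were higher and none lower, beside 25.5% and 24.6% of all genes. A promoter gene counted when any of its probes was called, whereas the shares of all genes rest on 1 probe a gene. The 2 ways of counting are not alike. A match describes letters and is not a binding site. The windows below are a selection from named members with a match before the start, and do not cover every match counted above. Each is given on the strand of the gene and with the match in capitals. The first 6 hold TTCNNNGAA and the last 3 GAAANNGAA, which reads on the opposite strand in Zfp238 and Zfp26.
Zfp36, chr7:28379229-28379275, minus strand: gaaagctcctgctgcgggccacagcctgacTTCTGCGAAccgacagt
Zfp189, chr4:49521120-49521175, plus strand: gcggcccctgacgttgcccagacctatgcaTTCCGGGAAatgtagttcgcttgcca
Zfp364 (Rnf115), chr3:96727402-96727470, plus strand: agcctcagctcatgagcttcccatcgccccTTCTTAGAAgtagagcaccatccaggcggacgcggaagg
Zfp414, chr17:33628939-33629007, plus strand: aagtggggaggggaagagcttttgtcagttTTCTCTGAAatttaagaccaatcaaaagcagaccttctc
Zfp457, chr13:67306481-67306549, minus strand: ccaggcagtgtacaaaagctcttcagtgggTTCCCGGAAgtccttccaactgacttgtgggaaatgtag
Zfp62, chr11:49203042-49203103, plus strand: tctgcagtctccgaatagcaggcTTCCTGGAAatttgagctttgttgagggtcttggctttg
Zfp238 (Zbtb18), chr1:177444403-177444462, plus strand: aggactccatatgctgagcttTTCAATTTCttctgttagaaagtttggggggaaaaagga
Zfp26, chr9:20460357-20460410, minus strand: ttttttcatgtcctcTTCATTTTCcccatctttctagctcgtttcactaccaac
Zfp655, chr5:145231513-145231581, plus strand: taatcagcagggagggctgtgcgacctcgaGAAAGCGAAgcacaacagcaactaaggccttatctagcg
Among these windows, the match lay closest to the annotated start in Zfp36, from 17 to 9 bases before it. All of these genes but Zfp36 were chosen by called changes in these same data. Calls among them thus follow from that choice and say nothing of the letters. Of these 9 genes, Zfp364, Zfp62, Zfp26, Zfp655 and Zfp238 were higher and Zfp414 lower in labelled iNOS-/- M1 than in WT M1 cells (adjusted p = 0.0031 for Zfp414), Zfp189 was at least 1.05-fold higher on 1 detected array of 2 (adjusted p = 0.0486), and Zfp457 and Zfp36 were not called there (adjusted p = 0.0818 and 0.266).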

How the data were processed

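The data were 8 Illumina MouseRef-8 arrays. The deposited table holds, per probe and array, an intensity and a detection p-value. Per the file headers no normalization and no background subtraction were applied in GenomeStudio, yet on each array between 25.2% and 27.2% of the deposited intensities were below 0, so none was subtracted again. The authors' own values had been rank-invariant normalized with negatives set to 1, and the submitters' processing notes name GenomeStudio and limma 3.14.4. For the present report, every array was brought to the mean array by a line through the origin over rank-invariant probes (relative rank from 0.5 to 0.9, moving by less than 0.05), values under 1 were set to 1, and log2 was taken. Probes whose deposited detection p-value was below 0.05 on 2 or more arrays were fitted together in limma 3.58.1 (R 4.3.3, MASS 7.3.60.0.1) with 4 group means, and p-values were Benjamini-Hochberg adjusted over all 13868 probes, with calls at 0.05. The fit was tested on simulated data, with 200 changes planted between the M1 groups outside the dimmest probes. Of these 79% were recovered, and 7.06% of the calls were false. The other simulated probes were left unchanged, whereas in the data 48.5% of all probes were called between the M1 groups. How the scaling and the fit behave with so many changes was not tested. A probe undetected on both arrays of the dim group is given as at least N-fold, against the lowest detected signal or its own, whichever was higher. The p-value beside it is that of the fitted log2 change and not of this bound. Values set to the floor add no spread to that fit.

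The members and the gene lists were chosen with earlier results of these data known. Named were, in each comparison of 2 groups, the 5 called members with the largest change each way that were detected on both arrays of the higher group without overlap, the 5 largest differences in response each way among members detected on all 8 arrays, the members of the role lists, and genes whose probes differed in call. The 4 comparisons share arrays and are not independent. With 2 arrays a group precision is limited by their number, and leaving 1 out assumes that the lone array varies like the other groups. Alternatives were quantile normalization, neqc, an intercept in the scaling line, a floor of 16, other detection filters, the 4 arrays of a comparison alone, a replicate block, an intensity trend, a 2-fold minimum, 1 probe a gene and each array left out. Replicate numbers did not pair the arrays: deviations from the group means correlated between -0.04 and 0.02. Gene symbols are those of the array design, updated through RefSeq IDs. 1 gene is not reported here, and protein sequences were not used here.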

Additional observations from a re-analysis of the deposited data

Results flagged for a closer look

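The response to LPS plus IFN-γ differed between the labelled genotypes, by the interaction term in limma, for 60 members, 27.9% of them against 42.1% of all probes tested. Among members detected on all 8 arrays, the differences with the largest size above 0 (response in the labelled iNOS-/- cells minus response in WT cells, log2) were 2.40 for Zfp367, 1.76 for Zfp26, 1.72 for Zfp62, 1.72 for Zfp655 and 1.69 for Zfp457. Those below 0 were -2.67 for Zfp385a, -1.98 for Zfp414, -1.79 for Zfp608, -1.66 for Zfp598 and -1.08 for Zfp326. Zfp414 gave 5.38 and 5.15 on WT unstimulated, 5.46 and 6.11 on WT M1, 5.62 and 5.46 on labelled iNOS-/- unstimulated and 3.97 and 4.18 on labelled iNOS-/- M1 arrays. The call of Zfp367 (adjusted p = 0.0151) was lost without WT M1 replicate 1 (0.0517), and that of Zfp326 (adjusted p = 0.0165) without WT unstimulated replicate 2 (0.054) or WT M1 replicate 2 (0.0538). The other probe of Zfp62 was not called (0.26, adjusted p = 0.648), and neither was the Zfp326 probe with the highest mean (-0.47, adjusted p = 0.141).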

How the results depend on the processing

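For the 50 named changes, 895 values under the alternatives gave 87 lost calls. No sign was reversed, which was largely fixed in advance. The changes between 2 groups were named for groups without overlap, so leaving out 1 array could not reverse them. The other filters, the replicate block, the intensity trend, the 2-fold minimum and the 4 arrays alone reuse the same log2 values. The medians over the members in the M1, unstimulated, WT response, labelled iNOS-/- response and difference comparisons were 0.11, -0.14, -0.17, 0.04 and 0.20. With quantile normalization they were 0.21 (M1), -0.40 (WT response), -0.011 (labelled iNOS-/- response) and 0.33 (difference). With an intercept in the scaling line they were 0.40, -0.22, -0.40, 0.15 and 0.50, with neqc -0.088 (unstimulated), and with a floor of 16 they were 0 in the 4 comparisons of groups and 0.043 for the difference. The median of all probes moved from 0.07 to -0.06 (WT response) and from 0.05 to -0.13 (labelled iNOS-/- response) with quantile normalization, and to 0.17 (M1), -0.08 (WT response) and 0.24 (difference) with an intercept. The WT response had 91 called members with neqc, against 54, where 44.5% of all probes were called. A 2-fold minimum left 27, 14, 16, 35 and 37 called members, and 24.9%, 14.1%, 15.0%, 28.7% and 28.0% of all probes. Leaving out 1 array gave 56 to 70, 21 to 34, 20 to 50, 53 to 75 and 47 to 53 called members, and medians of 0.10 to 0.16, -0.16 to -0.11, -0.19 to -0.12, 0.02 to 0.09 and 0.11 to 0.21. The replicate block, in a paired fit that the data do not bear out, gave 69, 29, 45, 75 and 57 called members, and of the named changes only the WT response of Zfp692 lost its call (adjusted p = 0.07). Probes near background limit the dim members, and 29 members lay at the floor on at least 1 array. A floor of 16 ended 19 of the 50 named calls, among them every one of Zfp11, Zfp819, Zfp760 and the first probe of Zfp296. The cause of these shifts was not tested.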

Other observations

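Among the partners of KRAB zinc finger proteins, Setdb1, the histone methyltransferase that Trim28 brings to its targets, gave 6.50 and 6.55 on WT unstimulated, 6.65 and 6.47 on WT M1, 6.67 and 6.66 on labelled iNOS-/- unstimulated and 5.63 and 5.62 on labelled iNOS-/- M1 arrays. Both labelled iNOS-/- M1 arrays lay below the other 6, with a difference of -0.93 ± 0.09 from WT M1 (log2, SE, limma adjusted p = 0.00103). Dnmt1, the maintenance DNA methyltransferase, gave 8.38 and 8.32, 7.83 and 7.86, 8.31 and 8.27, and 5.63 and 5.69 in the same order, a difference of -2.19 ± 0.08 between the M1 groups (adjusted p = 0.000122). Uhrf1, which guides Dnmt1 to newly copied DNA, gave 7.73 and 7.72, 9.41 and 9.19, 9.35 and 9.58, and 7.83 and 8.11. The summed markers of dividing cells were likewise higher in WT M1 and labelled iNOS-/- unstimulated cells, and their part was not tested. Of the 15 tested genes of the KRAB co-repressor machinery, 7 were lower in labelled iNOS-/- M1 than in WT M1 cells. Morc3 and Atf7ip were higher there, by 0.80 and 0.93 (limma adjusted p = 0.00175 and 0.00359).

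In the WT response, 3 of 5 tested Zkscan genes and 3 of 4 tested Zscan genes, families that carry a SCAN domain beside their zinc fingers, were lower in WT M1 than in WT unstimulated cells and none was higher. Of 17 Zbtb genes 4 were higher and 3 lower, of 10 Klf genes 2 higher and 2 lower, and of the 164 Zfp genes 15 higher and 35 lower. Of all 10163 genes 20.2% were higher and 16.2% lower.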
